A study of Homo sapiens with 16 samples.

Results

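The 9 genes described here are the metallothionein genes MT1E, MT1F, MT1G, MT1H, MT1M, MT1X and MT2A, the zinc-sensing transcription factor gene MTF1 and the zinc exporter gene SLC30A1. They were chosen by name, with earlier results of these data known, and are 9 of the 26258 genes in the deposited table. The study sequenced poly(A) RNA of the human hepatocellular carcinoma lines Huh7 and Hep3B in 16 libraries, 2 for each of 8 groups. In each line these were parental cells, cells labeled DMSO, the Sorafenib-resistant IR cells raised in increasing concentrations of the drug, and the resistant CR cells kept at a constantly high one. The labels give 7 μM Sorafenib for maintaining the IR and CR cells and none for parental and DMSO cells, so the presence of the drug and the resistance to it cannot be told apart. How the DMSO cells were grown is not given in the sources used here, and each resistant group is 1 derived line.

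Metallothioneins are small, cysteine-rich proteins that bind zinc and copper and are abundant in liver. When zinc inside the cell rises, it binds MTF1, which then occupies metal response elements in the promoters of the metallothionein genes and of SLC30A1, and the exporter carries zinc out across the plasma membrane. The genes also respond to cadmium, oxidants, glucocorticoids and inflammatory signals, and their transcripts are often low in hepatocellular carcinoma.

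The 7 metallothionein genes lie in 1 cluster on chromosome 16. In GRCh37, the build of the deposited counts, the gene spans are chr16:56642496-56643409 for MT2A, chr16:56659387-56661024 for MT1E, chr16:56666571-56667893 for MT1M and chr16:56691643-56694610 for MT1F. They continue with chr16:56700642-56701977 for MT1G, chr16:56703726-56705041 for MT1H and chr16:56716382-56718108 for MT1X. All are on the plus strand except MT1G. MTF1 is at chr1:38275246-38325264 and SLC30A1 at chr1:211744910-211752503, both on the minus strand.

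Promoter windows were taken from RefSeq and matched 5 of the 9 genes, MT2A, MT1X, MT1H, SLC30A1 and MTF1. They are shown because the metal response element links MTF1 to the other members. Each line gives the 250 bases before the start of transcription, 5′ to 3′ on the strand of the gene. Capitals mark the core of the element, searched as TGCACNC or TGCGCNC on both strands, with overlapping matches counted separately.
MT2A, GRCh38.p14 chr16:56608334-56608583, plus strand: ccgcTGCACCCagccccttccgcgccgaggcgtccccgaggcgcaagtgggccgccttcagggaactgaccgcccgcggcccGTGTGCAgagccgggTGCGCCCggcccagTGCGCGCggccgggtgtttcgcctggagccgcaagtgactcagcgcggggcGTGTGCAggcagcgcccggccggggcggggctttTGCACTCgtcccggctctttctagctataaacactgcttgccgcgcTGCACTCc
MT1X, GRCh38.p14 chr16:56682220-56682469, plus strand: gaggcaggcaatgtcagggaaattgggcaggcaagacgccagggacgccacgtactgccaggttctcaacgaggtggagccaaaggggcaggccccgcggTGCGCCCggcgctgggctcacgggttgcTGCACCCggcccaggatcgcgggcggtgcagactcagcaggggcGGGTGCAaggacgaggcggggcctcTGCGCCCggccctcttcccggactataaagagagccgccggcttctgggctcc
MT1H, GRCh38.p14 chr16:56669564-56669813, plus strand: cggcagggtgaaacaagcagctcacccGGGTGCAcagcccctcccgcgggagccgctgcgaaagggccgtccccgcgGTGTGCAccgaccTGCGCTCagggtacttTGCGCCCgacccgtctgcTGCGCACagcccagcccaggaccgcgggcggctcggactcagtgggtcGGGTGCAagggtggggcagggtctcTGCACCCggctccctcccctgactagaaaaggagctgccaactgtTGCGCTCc
SLC30A1, GRCh38.p14 chr1:211579162-211579411, minus strand: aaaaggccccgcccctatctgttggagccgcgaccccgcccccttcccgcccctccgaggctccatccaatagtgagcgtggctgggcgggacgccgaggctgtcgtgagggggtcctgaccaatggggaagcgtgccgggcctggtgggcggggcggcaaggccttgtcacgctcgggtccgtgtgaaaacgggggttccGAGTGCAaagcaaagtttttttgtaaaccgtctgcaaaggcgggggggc
MTF1, GRCh38.p14 chr1:37859593-37859842, minus strand: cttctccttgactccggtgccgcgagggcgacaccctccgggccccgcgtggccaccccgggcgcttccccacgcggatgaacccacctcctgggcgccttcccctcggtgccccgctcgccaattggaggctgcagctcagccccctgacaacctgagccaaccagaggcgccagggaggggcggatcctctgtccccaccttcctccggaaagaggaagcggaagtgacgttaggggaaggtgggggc

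The 250 bases held 7 cores in MT2A, 4 in MT1X, 8 in MT1H, 1 in SLC30A1 and 0 in MTF1. Of all 35116 promoter windows in the RefSeq table, 24.8% held at least 1 core in these 250 bases, 0.37% at least 4, 0.0313% at least 7 and 0.0171% at least 8. MT1X and MT1H shared the positions of a core 78 to 72 bases and of another 53 to 47 bases before the start, and MT2A and MT1H each had a core 8 to 2 bases before it. A match in letters is a description and not a measured site.

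The deposited values are CPM, in which the reads of a gene are scaled to the counted reads of its library. Whole reads could be recovered from them, and the totals lay between 46613302 and 76860251 reads, so 3 reads, the most that a count of 0 allows, were worth 0.0390 to 0.0644 CPM. Intervals of this kind cover counting error only. The labels and methods differ on the kit and the sequencer, and the methods state biological triplicates where 2 libraries a group are analysed here. Nothing in the labels says that replicates came from separate cultures, so the p-values below measure the spread between these libraries. The lines carried hepatocyte markers in parental and DMSO cells, where ALB, the serum albumin gene, lay between 3629 and 19700 CPM. In IR and CR cells it lay between 60.6 and 5526 CPM, and the summed level of 8 hepatocyte markers went from 10140 to 24760 CPM in untreated Huh7 down to 105 to 2779 CPM in resistant Huh7 libraries. The fibroblast markers COL1A1, COL1A2, COL3A1 and PDGFRB summed to 5.09 to 13.7 CPM in untreated and 281 to 538 CPM in resistant Huh7 libraries, and to 4.12 to 14.5 and 12.8 to 71.0 CPM in Hep3B. The T cell marker CD3E and the endothelial markers CDH5 and KDR were each at 3 reads or fewer in 15 of the 16 libraries. Leukocyte marker sums ranged from 1.28 to 76.0 CPM and endothelial ones from 0.0927 to 6.36 CPM. For IR and then CR cells of Huh7, followed by IR and then CR cells of Hep3B, each over parental cells, 7, 6, 3 and 5 of the 8 hepatocyte markers fell and 0, 0, 1 and 0 rose, among them AFP, the fetal albumin-like protein, at -10.2, -8.19, -1.74 and -5.03 (log2). APOB, the core protein of lipoproteins, was at -8.54, -4.42, -2.41 (adjusted p = 0.0524) and -3.69. SERPINA1, the hepatocyte marker that rose, had means of 469 CPM in Hep3B parental, 2022 CPM in Hep3B DMSO and 1606 CPM in Hep3B-IR cells. Of the 4 fibroblast markers 4, 4, 1 and 1 rose and 0, 0, 1 and 0 fell in that order, with the collagen gene COL1A1 at 5.04, 4.21, 4.69 and 5.70 and COL1A2 at 5.20, 5.93, 0.14 and 1.04. Of the 3 leukocyte markers tested 2, 1, 0 and 0 fell and 0, 0, 0 and 1 rose, with the phosphatase gene PTPRC at -0.93, -0.69, 0.02 and 0.004 and the lysozyme gene LYZ at -3.04, 0.43, -0.88 and -1.27. CD74, the leukocyte marker that rose, had means of 19.9 CPM in Hep3B parental, 39.1 CPM in Hep3B DMSO and 49.5 CPM in Hep3B-CR cells. PECAM1, the 1 endothelial marker tested, was at -1.09, -0.95, 0.31 and 0.15 and fell in both Huh7 groups. In the same order 31.1%, 20.9%, 15.7% and 20% of all genes tested rose and 17.8%, 13.6%, 11.4% and 12.3% fell. The part of these markers in the changes below was not tested. In bulk RNA, fewer cells that express a gene and less of its RNA per cell cannot be told apart.

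The replicates of Huh7 parental cells stood apart from each other in the metallothioneins. MT2A was 2.41 higher in replicate 1 than in replicate 2 on the scale of log2(CPM + 1), and only 0.0333% of the 15019 genes tested differed as much between these 2 libraries. The difference was 2.19 for MT1E, 2.10 for MT1F, 2.39 for MT1G, 1.58 for MT1M and 1.03 for MT1X, against a median of 0.153 over all genes. SLC30A1 differed by 0.63, which 4.34% of the genes reached, and MTF1 by -0.04. Across genes, which are not independent replicates, the difference between these libraries had a Spearman correlation of 0.533 with the GC content of the exons. After an adjustment for GC the difference of MT2A was 2.23 and that of MT1E 1.92. The correlation with GC was not particular to parental cells. It was -0.514 for the Huh7 DMSO libraries and -0.372 for those of Hep3B DMSO, which serve as a reference below. In Huh7-IR cells replicate 1 was also the higher one, by 1.37 for MT1E, 2.29 for MT1M and 1.47 for SLC30A1, and by 0.47 for MT2A. Counts of calls that use Huh7 parental cells are therefore also given with a library left out, with ranges of the fold change for some members.

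MT2A, the metallothionein most widely expressed across human tissues, was at 27.5 and 4.38 CPM in the 2 Huh7 parental libraries and at 4.83 and 3.43 CPM in Huh7 DMSO cells. In Huh7-IR cells it was at 65.3 and 46.7 CPM, and in Huh7-CR cells at 21.3 and 21.8 CPM. Both IR libraries lay above every untreated Huh7 library, and the CR libraries lay between the parental ones. In Hep3B the gene was at 0.835 and 0.900 CPM in parental, 1.60 and 0.877 CPM in DMSO and 0.508 and 0.355 CPM in IR cells. In Hep3B-CR cells it reached 28.4 and 20.5 CPM, a mean of 24.5 ± 5.62 CPM (SD, n = 2), which was 28.2 times the parental mean and 19.7 times the DMSO mean. So the 2 resistant lines of Hep3B stood at opposite ends, with both IR libraries below all other Hep3B libraries and both CR libraries above them.

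MT1E, which codes for an MT1 isoform, was at 16.95 and 2.92 CPM in Huh7 parental, 2.14 and 0.905 CPM in DMSO, 83.3 and 31.7 CPM in IR and 27.3 and 21.4 CPM in CR cells. All 4 resistant Huh7 libraries lay above all 4 untreated ones. In Hep3B it stayed under 1 CPM, with 0.215 and 0.0422 CPM in parental, 0.234 and 0.425 CPM in DMSO, 0 and 0.0142 CPM in IR and 0.715 and 0.343 CPM in CR cells.

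MT1X, another MT1 isoform, was at 31.6 and 14.97 CPM in Huh7 parental, 5.92 and 3.88 CPM in DMSO, 72.3 and 27.8 CPM in IR and 20.1 and 19.2 CPM in CR cells. IR replicate 2 and both CR libraries lay between the 2 parental libraries, while all 4 resistant libraries lay above both DMSO ones. In Hep3B it was at 1.05 and 1.11 CPM in parental, 0.677 and 0.617 CPM in DMSO, 0.147 and 0.199 CPM in IR and 2.97 and 2.69 CPM in CR cells. The order of the Hep3B groups for MT1X was thus CR, parental, DMSO and IR, with no overlap between the libraries of neighbouring groups.

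MT1F was at 24.9 and 5.04 CPM in Huh7 parental, 3.28 and 2.53 CPM in DMSO, 32.4 and 13.0 CPM in IR and 13.5 and 12.9 CPM in CR cells. MT1G was at 8.38 and 0.790 CPM, 0.593 and 0.100 CPM, 18.6 and 4.83 CPM, and 2.94 and 4.23 CPM in the same order. For both genes the CR libraries lay between the 2 parental libraries. In Hep3B neither passed 0.133 CPM in any library.

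MT1M was at 2.02 and 0.0134 CPM in Huh7 parental and at 8.29 and 0.901 CPM in Huh7-IR cells, with 0.0966 and 0 CPM in DMSO and 0.773 and 0.733 CPM in CR cells. It had 0 reads in all 6 Hep3B parental, DMSO and IR libraries. In the 2 Hep3B-CR libraries it had 62 and 20 reads, or 0.821 and 0.381 CPM, at least 14.5-fold higher than parental cells when the 0 of each parental library is set to 3 reads. MT1H, with the most cores in its promoter window, was at 0.277 CPM or less in every library and was not tested. Its highest counts were 19 reads in Huh7 parental replicate 1 and 14 reads in Huh7-IR replicate 1, and it had 1 read over all 8 Hep3B libraries.

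MTF1 varied far less than the genes it is known to act on. It was at 29.0 and 29.8 CPM in Huh7 parental, 24.2 and 22.6 CPM in DMSO, 37.0 and 37.78 CPM in IR and 33.8 and 32.2 CPM in CR cells. In Hep3B it was at 16.7 and 15.8 CPM, 15.04 and 13.1 CPM, 17.8 and 16.9 CPM, and 16.9 and 19.6 CPM in the same order. In both lines all 4 resistant libraries lay above all 4 untreated ones, by 16.9 over 16.7 CPM at the nearest pair in Hep3B, and this separation was lost in both lines under TMM factors, quantile normalization and a GC adjustment.

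SLC30A1 was at 57.9 and 36.9 CPM in Huh7 parental, 13.5 and 18.8 CPM in DMSO, 108 and 38.2 CPM in IR and 91.2 and 85.5 CPM in CR cells. Both CR libraries lay above both parental ones, as they did for MT1E, while IR replicate 1 was above the CR libraries and IR replicate 2 was next to parental replicate 2. In Hep3B it was at 14.3 and 13.5 CPM in parental, 14.0 and 14.5 CPM in DMSO, 10.7 and 18.8 CPM in IR and 21.9 and 26.0 CPM in CR cells. Both CR libraries lay above the other 6 Hep3B libraries, and the IR libraries lay on both sides of the untreated ones.

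The CPM of the 7 metallothioneins was summed for each library. The sum was 112 and 28.1 CPM in Huh7 parental, 16.9 and 10.9 CPM in DMSO, 280 and 125 CPM in IR and 86.0 and 80.4 CPM in CR cells. In Hep3B it was 2.13 and 2.05 CPM in parental, 2.55 and 1.93 CPM in DMSO, 0.656 and 0.568 CPM in IR and 33.0 and 24.1 CPM in CR cells. The makeup of the sum also differed. MT1E made up 25.4% to 31.8% of it in the 4 resistant Huh7 libraries and 8.33% to 15.2% in the 4 untreated ones. MT2A made up 86.1% and 85.0% of the sum in Hep3B-CR cells, against 39.2% to 62.8% in untreated Hep3B libraries, 77.6% and 62.5% in Hep3B-IR cells and 15.6% to 37.4% in Huh7. The Hep3B-IR sums rest on 49 and 40 reads.

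**Figure D1:**
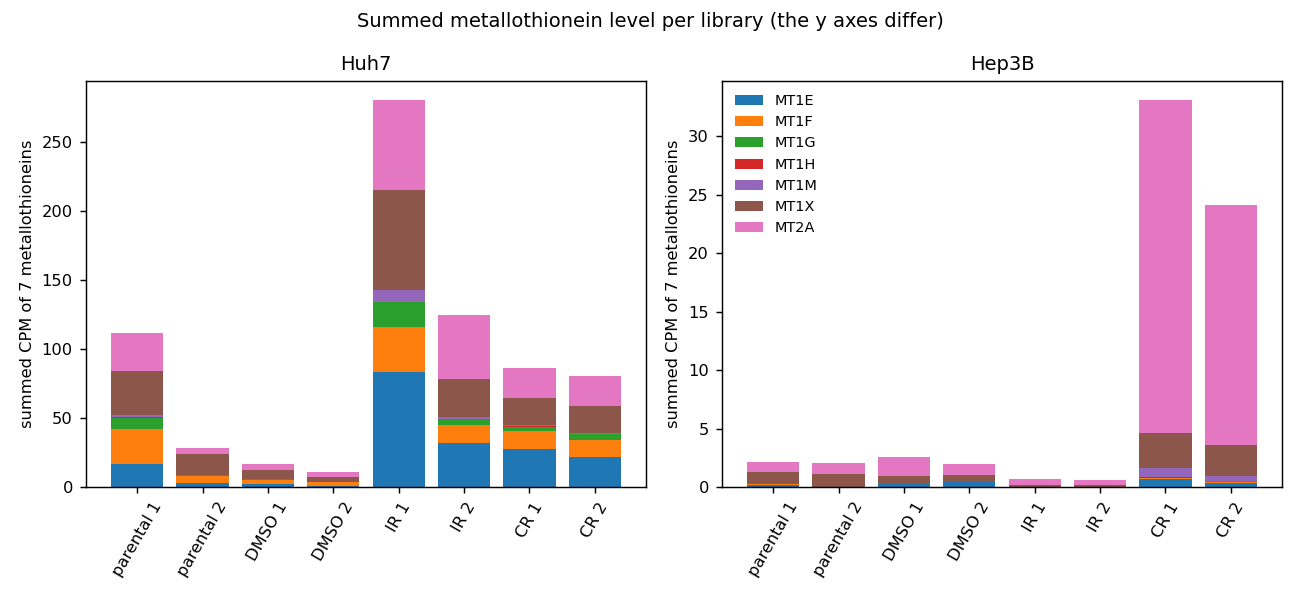
Summed CPM of the 7 metallothioneins in each library, stacked by gene, with Huh7 on the left and Hep3B on the right. The y axes differ: the highest Huh7 bar is IR replicate 1 at 280 CPM and the highest Hep3B bar is CR replicate 1 at 33.0 CPM, most of which is MT2A.

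To set the genes beside each other, mean CPM was divided by the length of the canonical transcript in kb. On this scale the highest member in Huh7 parental cells was MT1X at 57.7 ± 29.1 CPM per kb (SD, n = 2), followed by MT2A at 39.8 ± 40.8 and MT1F at 35.3 ± 33.1 CPM per kb. These neighbours did not differ beyond their spread. In Huh7-IR cells the order was MT2A at 140 ± 32.8, MT1X at 124 ± 77.9, MT1E at 77.1 ± 48.9 and MT1F at 53.4 ± 32.3 CPM per kb, again with overlapping spreads. In Huh7-CR cells MT2A at 53.8 ± 0.964 lay above MT1X at 48.6 ± 1.56 CPM per kb, MT1E at 32.7 ± 5.60 and MT1F at 31.1 ± 1.10 did not differ beyond their spread, and SLC30A1 was at 14.99 ± 0.682 CPM per kb. In Hep3B parental cells MT1X at 2.68 ± 0.107, SLC30A1 at 2.36 ± 0.0967, MT2A at 2.16 ± 0.116 and MTF1 at 2.05 ± 0.0798 CPM per kb were close together. In Hep3B-CR cells MT2A stood at 61.0 ± 14.0 and the next gene, MT1X, at 6.99 ± 0.492 CPM per kb. The spreads cover 2 libraries, and the authors kept only reads with a unique hit. Of all stretches of 75 bases, the read length in the labels, 11.9% in the MT1E transcript and 10.8% in the MT1H transcript occur elsewhere in GRCh37, against 0% in MT2A and MT1F and at most 3.94% in the other metallothioneins. Levels of MT1E and MT1H are therefore uncertain between genes.

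To ask how these genes differ between resistant and parental cells, log2(CPM + 1) of 15019 genes was fitted with limma in 1 model over the 8 groups. A gene was called when its Benjamini-Hochberg adjusted p was under 0.05 and its log2 fold change at least 0.58 in size. The filter of at least 1 CPM in at least 2 libraries kept 8 of the 9 members, all but MT1H. MT1E, MT1F, MT1G and MT1M did not reach 1 CPM in any Hep3B library, so they were tested in Hep3B only because of their levels in Huh7. A fold change on this scale understates the change of genes near or below 1 CPM.

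In Huh7-IR over Huh7 parental cells 3 of the 8 members tested rose, against 31.1% of all genes tested, and 0 fell, against 17.8%. MT1E rose by 2.65 ± 0.57 (SE, log2, adjusted p = 0.00183), MT2A by 2.18 ± 0.54 (adjusted p = 0.00433) and MT1X by 1.01 ± 0.39 (adjusted p = 0.0412). With 1 library left out the values were 1.55 to 3.74 for MT1E, 0.98 to 3.39 for MT2A and 0.33 to 1.68 for MT1X. For MT1G the difference was 1.38 ± 0.63 (adjusted p = 0.0777), for MT1M 1.26 ± 0.58 (adjusted p = 0.0806) and for MT1F 0.79 ± 0.52 (adjusted p = 0.210). The MT1X call was lost with edgeR (adjusted p = 0.0657), DESeq2 (0.0520), TMM factors (0.0770), quantile normalization (0.121), no filter (0.0862) and the GC adjustment (0.128), with values of 0.72 to 1.01. The median over the 8 members was 1.14 and over all genes 0.19. MTF1 (0.34 ± 0.14, adjusted p = 0.0515) and SLC30A1 (0.47 ± 0.39, adjusted p = 0.328) were not called. Without Huh7 parental replicate 1 there were 6 calls and without replicate 2 there were 2, and without IR replicate 2 there were 6. With only the 2 groups in the fit there were 0 calls.

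In Huh7-CR over Huh7 parental cells only MT1E was called among the 8, higher by 1.59 ± 0.57 (adjusted p = 0.0423), where 20.9% of all genes were called higher, and 0 members were lower, where 13.6% were. MT2A differed by 0.86 ± 0.54 (adjusted p = 0.226) and SLC30A1 by 0.92 ± 0.39 (adjusted p = 0.0804). For MT1X the value was -0.15 ± 0.39 (adjusted p = 0.809). The MT1E call had an adjusted p of 0.184 with edgeR on the recovered reads, and there were 3 calls without parental replicate 1 and 0 without parental replicate 2 or without either CR library.

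In Hep3B-IR over Hep3B parental cells 0 of 8 members were called higher and 0 lower with limma, beside 15.7% and 11.4% of all genes. At an unadjusted p under 0.05 the count was also 0. The largest difference was in MT1X, at -0.83 ± 0.39 (adjusted p = 0.126). The counts of this gene fell by 2.69 on the log2 scale with edgeR on the recovered reads (adjusted p = 0.00211), where it was the only call, and DESeq2 called MT1X and MT1E lower. With the Hep3B libraries alone in the limma fit MT1X was also called, with the same fold change and an adjusted p of 0.000462.

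In Hep3B-CR over Hep3B parental cells MT2A was called higher by 3.75 ± 0.54 (adjusted p = 0.000246), as the only one of 8 members against 20% of all genes, and 0 members were lower against 12.3%. MT1X differed by 0.88 ± 0.39 (adjusted p = 0.0924), SLC30A1 by 0.74 ± 0.39 (adjusted p = 0.156) and MT1M by 0.67 ± 0.58 (adjusted p = 0.395). With edgeR on the recovered reads MT1X was also called, at 1.27 (adjusted p = 0.0337), and MT2A stood at 4.70 (adjusted p = 0.000326). MT2A was called after leaving out each of the 4 libraries in turn, with log2 fold changes of 3.52 to 3.98.

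Cells labeled DMSO were compared with parental cells as a background for the changes in resistant cells. In Huh7 1 of the 8 members was called, against 4.83% of all genes. MT1X fell by 1.97 ± 0.39 (SE, log2, adjusted p = 0.0175), and SLC30A1 was at -1.48 ± 0.39 (adjusted p = 0.0503), MT1E at -1.78 ± 0.57 (adjusted p = 0.0889) and MT1F at -1.69 ± 0.52 (adjusted p = 0.0779). All 8 members had a negative value, but the count was 0 without parental replicate 1 and 5 without parental replicate 2. In Hep3B 0 of 8 members were called with limma, against 1.58% of all genes, and the values lay between -0.34 and 0.24. At an unadjusted p under 0.05 and with edgeR and DESeq2 the count was 0 as well. DMSO replicates differed in the 8 hypoxia-induced genes listed, with sums from 257 to 874 CPM in Huh7 and from 151 to 401 CPM in Hep3B, and the part of this difference in the members' values was not tested.

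The same resistant cells were therefore also compared with DMSO cells. These comparisons share the resistant libraries with those above. In Huh7-IR over DMSO cells all 8 members tested were called higher, against 28.3% of all genes. MT1E differed by 4.43 ± 0.57 (adjusted p = 4.81e-05), MT2A by 3.47 ± 0.54, MT1G by 3.01 ± 0.63, MT1X by 2.98 ± 0.39, MT1F by 2.48 ± 0.52, MT1M by 2.01 ± 0.58, SLC30A1 by 1.95 ± 0.39 and MTF1 by 0.65 ± 0.14. In Huh7-CR over DMSO cells 6 of 8 were called higher, against 18.8% of all genes. SLC30A1 was higher by 2.40 ± 0.39 (adjusted p = 0.000435) and MT1E by 3.37 ± 0.57 (adjusted p = 0.000574), and MT1X changed sign to 1.83 ± 0.39 (adjusted p = 0.00251). MT1M (0.74 ± 0.58) and MTF1 (0.48 ± 0.14) were not called. Of the untreated libraries only Huh7 parental replicate 1 reached 1 CPM for MT1G and MT1M. Both genes thus passed the filter through resistant libraries, where they are high. Their calls over DMSO cells, which these counts include, add no support for a change. In Hep3B-IR over DMSO cells 0 of 8 were called higher, against 17.3% of all genes, and in Hep3B-CR cells 2 of 8, against 19.5%. The latter were MT2A at 3.51 ± 0.54 (adjusted p = 0.000338) and MT1X at 1.22 ± 0.39 (adjusted p = 0.0257).

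**Figure D2:**
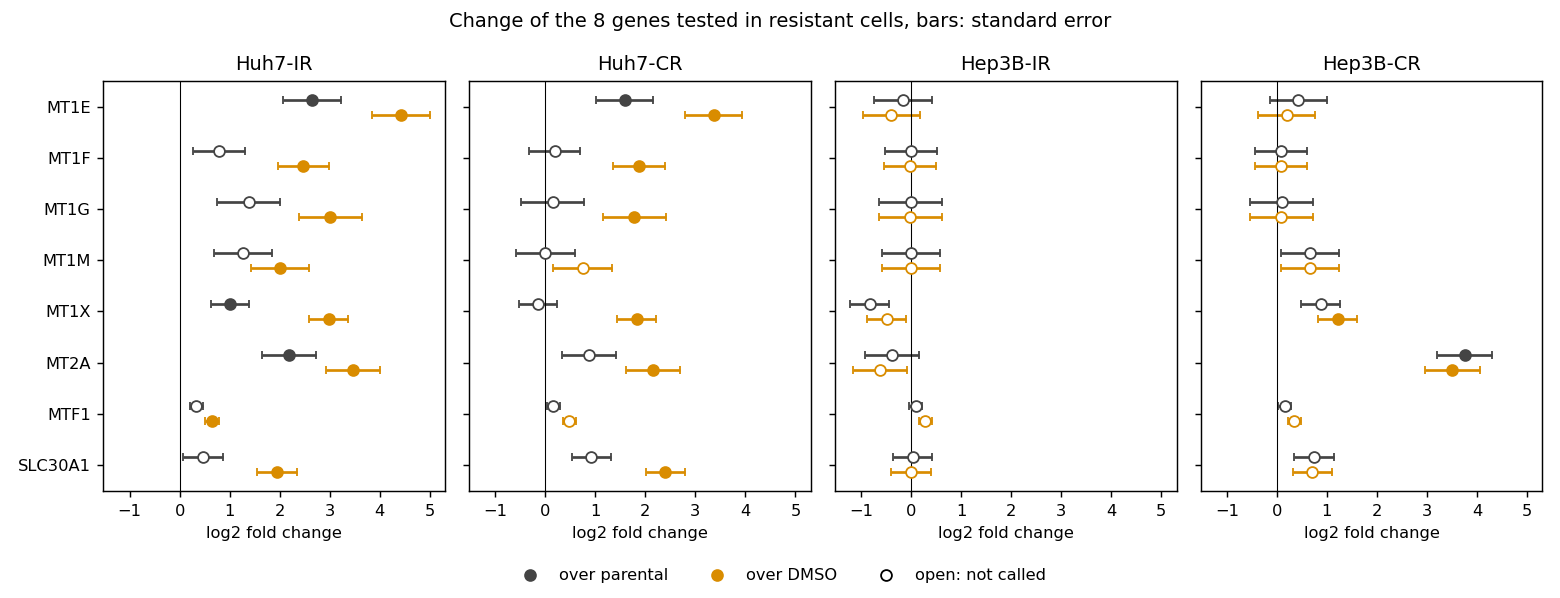
Log2 fold change of the 8 members tested in each resistant group over parental cells (grey) and over DMSO cells (orange), from limma on log2(CPM + 1) with bars of 1 standard error and filled points for called genes. In Huh7 the values over DMSO are all higher than those over parental cells, as for MT1E at 4.43 and 2.65 in IR cells, and in Hep3B-CR MT2A stands at 3.75 over parental and 3.51 over DMSO cells.

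Across both kinds of resistant and both kinds of untreated libraries, 2 of 8 members, MT1E and MTF1, had all 4 resistant Huh7 libraries above all 4 untreated ones, beside 25% of all genes tested, and 0 had them below, beside 16.9%. In Hep3B 1 member, MTF1, had them all above, beside 25.2% of all genes, and 0 below, beside 16.5%. The Huh7 count depended on parental replicate 1, in which the metallothioneins were high. Without this library all 8 members tested separated in Huh7, and without Hep3B-IR replicate 1 SLC30A1 joined MTF1 in Hep3B. A separation is easier to reach with a library fewer, and the share of all genes is not given for these settings. They are therefore no support for a change in the members.

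IR and CR cells of 1 line were compared directly. In Huh7-IR over Huh7-CR cells 0 of 8 members were called with limma, beside 13.7% of all genes. At an unadjusted p under 0.05 there were 2, MT1X at 1.15 ± 0.39 and MT2A at 1.32 ± 0.54, and edgeR called 0 and DESeq2 1. Without IR replicate 2 there were 3 calls higher, and without IR replicate 1 there was 1 call lower. In Hep3B-IR over Hep3B-CR cells 2 of 8 members were called, both lower in IR cells, beside 11.7% of all genes in either direction. MT2A fell by 4.14 ± 0.54 (SE, log2, adjusted p = 0.000505) and MT1X by 1.70 ± 0.39 (adjusted p = 0.0138). Leaving out any 1 of the 4 libraries kept the MT2A call and ended that of MT1X, whose adjusted p was then 0.0657 to 0.0768.

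Parental cells of the 2 lines were compared with each other. In Huh7 over Hep3B parental cells 7 of 8 members were called higher, beside 18.9% of all genes. MT1E, MT1F, MT1G and MT1M passed the filter only through libraries of Huh7, so the count is no support for a difference between the lines, and values are given for the other 4. MTF1 was higher in Huh7 by 0.82 ± 0.14 (adjusted p = 0.000321) and SLC30A1 by 1.67 ± 0.39 (adjusted p = 0.00368). MT1X was higher by 3.46 ± 0.39 (adjusted p = 1.39e-05) and MT2A by 2.73 ± 0.54 (adjusted p = 0.00118). With 1 library left out the values were 2.94 to 3.97 for MT1X and 1.53 to 3.93 for MT2A. They were 1.35 to 1.98 for SLC30A1 and 0.78 to 0.86 for MTF1. MT1M, the 1 member not called by limma (adjusted p = 0.271), had 139 reads and 1 read in the Huh7 libraries and 0 in both Hep3B libraries. It was called with edgeR (adjusted p = 0.0302) and DESeq2 (adjusted p = 0.00759), but without Huh7 parental replicate 1 the limma value was 0.019, since the reads are nearly all from that library.

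The change was tested between the lines by an interaction contrast. The change of IR cells over parental cells was larger in Huh7 than in Hep3B for 3 of 8 members, beside 36.3% of all genes in either direction. These were MT1E (2.81 ± 0.81, adjusted p = 0.0172), MT2A (2.57 ± 0.77, adjusted p = 0.0201) and MT1X (1.84 ± 0.55, adjusted p = 0.0202). MT1E was tested in Hep3B only because of its level in Huh7, and its Hep3B change is pressed toward 0 on this scale, at -0.16 against -3.96 with edgeR, so its difference is no support for a difference between the lines. MT2A was below 1 CPM in both parental and both IR libraries of Hep3B, and MT1X in both IR libraries. The Hep3B changes of these genes, -0.39 and -0.83, are therefore also pressed toward 0, and the size of their difference between the lines is uncertain. The change of CR cells differed in 1 of 8, MT2A, beside 21.9% of all genes, and was larger in Hep3B by 2.89 ± 0.77 (value -2.89 for Huh7 minus Hep3B, adjusted p = 0.0186). With DMSO cells as reference the MT2A value was -1.36 ± 0.77 (adjusted p = 0.222) and was not called, and the 2 calls were of the opposite direction, in MT1E (3.17 ± 0.81, adjusted p = 0.0145) and SLC30A1 (1.69 ± 0.56, adjusted p = 0.0453). Its adjusted p was also above the threshold, at 0.0511 to 0.0635, without either Huh7-CR library, either Hep3B parental library or Hep3B-CR replicate 1. The IR count was 5 without Huh7 parental replicate 1, 1 without its replicate 2 and 0 without Huh7-IR replicate 1 or Hep3B parental replicate 1.

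The list of other metallothionein genes and pseudogenes held 10 names, of which 9 were in the table and 2, MT1A and MT1L, passed the filter. MT3 and MT4, which are known for expression in brain and in squamous epithelium, had 0 reads in all 16 libraries. MT1A was at 2.74 and 0.911 CPM in Huh7 parental and 2.89 and 0.708 CPM in Huh7-IR cells, and was called in 0 of the 4 resistant comparisons. MT1L was called in Huh7-CR cells, higher by 0.93 ± 0.29 (adjusted p = 0.0210), and in 0 of the other 3. It was at 1.44 and 0.107 CPM in Huh7 parental and 2.29 and 1.99 CPM in Huh7-CR cells. Of the untreated libraries only Huh7 parental replicate 1 reached 1 CPM. MT1L thus passed the filter through resistant libraries, and its call is no support for a change.

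Other genes of zinc and copper handling and of pathways known to act on metallothioneins were taken as lists. Their counts are given over parental cells for IR and then CR cells of Huh7 and then of Hep3B, in this order throughout. Of all genes tested 31.1%, 20.9%, 15.7% and 20% rose and 17.8%, 13.6%, 11.4% and 12.3% fell. The counts are set beside these shares and are not read as results about the lists. Of the zinc exporters of the SLC30 family other than SLC30A1, 6 of 9 were tested, and 2, 2, 1 and 2 rose while 2, 1, 1 and 1 fell. SLC30A10, a transporter best known for exporting manganese, fell in all 4 comparisons, with log2 fold changes of -4.99, -4.87, -1.44 and -2.33 ± 0.26 (SE) and adjusted p of 0.0013 or less. It was at 25.7 to 41.1 CPM in the untreated Huh7 libraries and at 0.0332 to 0.196 CPM in the resistant ones. In Hep3B it was at 30.3 to 40.9 CPM and at 4.28 to 12.7 CPM. SLC30A4, which loads zinc into vesicles, had log2 fold changes of 2.89, 1.93, 0.78 and 1.72 ± 0.34, of which the third was not called (adjusted p = 0.102). It was at 0.162 CPM or less in all 8 untreated libraries and at 12.2 and 3.60 CPM in the IR libraries of Huh7. SLC30A4 passed the filter only through resistant libraries, where it is high, so its calls add no support to these levels. SLC30A7, chosen here after its values were seen, carries zinc into the Golgi and rose in all 4 comparisons, by 0.64 to 0.86 on the log2 scale.

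Of the zinc importers of the SLC39 family 12 of 14 were tested, and 2, 2, 2 and 2 rose while 3, 2, 1 and 0 fell. SLC39A13, which releases zinc from intracellular vesicles, had log2 fold changes of 2.53, 1.87, 0.16 and 0.92 ± 0.36 (SE) and was called in the Huh7 comparisons. SLC39A7, which releases zinc from the endoplasmic reticulum, had 1.15, 0.93, 0.46 and 0.48 ± 0.19 and was also called in Huh7 alone. Whether its change differed between the lines was tested for IR cells, where the difference was 0.69 ± 0.27 (adjusted p = 0.0590). SLC39A14, an importer of zinc, iron and manganese at the liver cell surface that was likewise chosen after its values were seen, had log2 fold changes of -1.07, -1.02, 0.36 and 0.66 ± 0.15, of which the third was not called. It was also lower in DMSO cells of Huh7, at 545 and 434 CPM, than in parental cells, at 930 and 970 CPM (-0.96 ± 0.15, adjusted p = 0.00524).

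**Figure D3:**
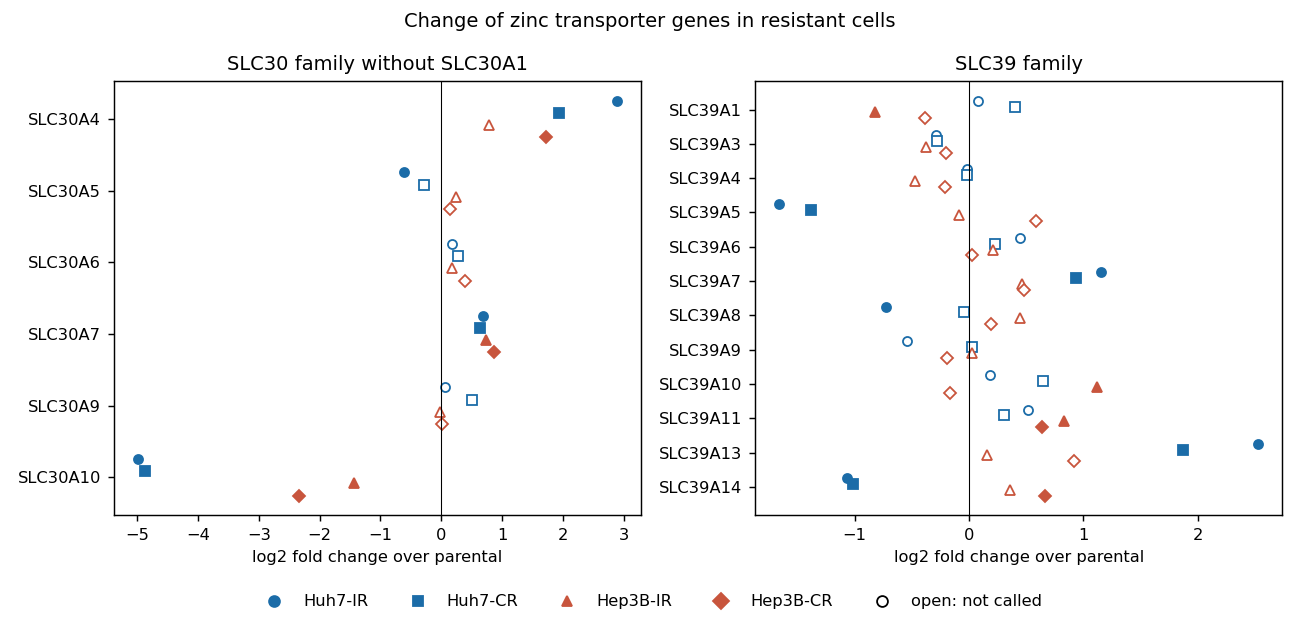
Log2 fold change over parental cells of the tested zinc exporters of the SLC30 family (left) and importers of the SLC39 family (right) in the 4 resistant groups, with filled points for called genes. SLC30A10 lies far to the left in both Huh7 groups, at -4.99 and -4.87, and SLC39A13 and SLC30A4 lie to the right.

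Of 10 genes of copper handling 1, 1, 1 and 1 rose and 4, 2, 2 and 2 fell. COX17, the chaperone that brings copper to cytochrome c oxidase, fell in all 4 comparisons, with log2 fold changes of -1.01, -1.37, -0.81 and -0.88 ± 0.19 (SE). CP, the plasma ferroxidase ceruloplasmin, had -1.56, -1.34, -1.37 and -1.996 ± 0.68, of which the last was called (adjusted p = 0.0347).

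Among 8 oxidant-response genes regulated by NRF2, 1, 1, 2 and 3 rose and 2, 3, 0 and 1 fell. SLC7A11, the cystine transporter, rose in all 4 comparisons, by 2.16, 1.67, 2.04 and 1.68 ± 0.28 on the log2 scale. NQO1, a quinone reductase, had log2 fold changes of -3.06, -2.34, -0.47 and -1.23 ± 0.36, of which the third was not called. Of 6 heat shock genes 1, 0, 0 and 0 rose and 0, 0, 2 and 3 fell. The chaperone genes HSPA1A, at -1.30 and -1.79 ± 0.22, and HSPH1, at -1.62 and -1.04 ± 0.33, fell in the IR and CR cells of Hep3B.

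Of 7 glucocorticoid-induced genes 2, 1, 2 and 1 rose and 1, 0, 3 and 4 fell. TSC22D3, which codes for the leucine zipper protein GILZ, rose in all 4 comparisons, by 3.03, 3.01, 1.69 and 2.62 ± 0.40 (SE, log2). SGK1, a kinase gene on the same list, had -0.81, -0.15, -1.23 and -1.96 ± 0.42 and fell in both Hep3B comparisons. Of 8 hypoxia-induced genes 2, 2, 1 and 1 rose and 1, 0, 0 and 0 fell. VEGFA, the angiogenic growth factor, had log2 fold changes of 1.43, 0.77, 2.32 and 1.95 ± 0.33, of which the second was not called, and PDK1, a kinase that holds back pyruvate oxidation, had 1.51, 1.23, -0.03 and 0.71 ± 0.41 and rose in both Huh7 comparisons.

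The genes whose log2(CPM + 1) followed that of MT2A most closely over the 16 libraries were IRF1 (Pearson's r = 0.942), TRIM62 (0.941), DLGAP1 (0.934), TRIM56 (0.934) and DNPEP (0.933). IRF1, an interferon-induced transcription factor, was at 44.5 ± 8.85 CPM (SD, n = 2) in Huh7-IR and 38.4 ± 5.79 CPM in Hep3B-CR cells, against 17.2 ± 4.38 and 7.55 ± 0.631 CPM in the parental cells of these lines. The genes closest to MTF1 were PCYT1A (0.985), NOTCH2 (0.980), VPS33A (0.979), DIS3 (0.978) and ATXN1L (0.974). These correlations are descriptions over libraries that share 2 lines and 8 groups.

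Within each line the members were also set against each other over its 8 libraries, again as a description. In Huh7 the correlation of MT2A was 0.975 with MT1E, 0.905 with MT1X, 0.763 with SLC30A1 and 0.866 with MTF1. In Hep3B it was 0.762 with MT1E, 0.915 with MT1X, 0.804 with SLC30A1 and 0.449 with MTF1.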

How the data were processed

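Samples were grouped by their titles. The authors aligned to hg19 with STAR, kept uniquely placed reads, counted them per RefSeq gene and deposited CPM for 26258 genes, of which 26111 gene IDs were matched to a symbol. The deposited CPM were whole multiples of 1 read for 100% of values within 0.05 reads, so reads were recovered for the count models. The fit used limma 3.58.1 in R 4.3.3 on log2(CPM + 1) with a mean-variance trend, over all 16 libraries, and was tested on simulated data. Adjusted p are limma's, after Benjamini and Hochberg over 15019 genes, unless edgeR 4.0.16 (quasi-likelihood) or DESeq2 1.42.0 is named.

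The members and lists were chosen with earlier results of these data known. All 9 members are named, and from each other list the 2 genes with the largest absolute mean change over the 4 resistant comparisons. A few further genes of the lists are named for their values. For MT2A and MTF1 the 5 genes with the highest correlation over the libraries are named. Alternatives were other scalings (TMM, quantile, GC), pseudocounts of 0.25 and 4 CPM, no filter (23311 genes) or 1 CPM in all libraries (11203 genes), unadjusted p, DMSO as reference, fewer groups in the fit, a replicate block, each library left out, and the count models. Coordinates are from GENCODE on GRCh37 and promoters from RefSeq on GRCh38.p14.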

Additional observations from a re-analysis of the deposited data

Results flagged for a closer look

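Changes were compared between Huh7 and Hep3B by limma's interaction contrast (2 libraries a group). It called 3 of 8 members for IR cells and 1 of 8 for CR cells. Of all genes tested 36.3% and 21.9% were called in either direction, so the counts are no result particular to the metallothioneins. For IR cells the change over parental cells in Huh7 minus that in Hep3B was 2.81 ± 0.81 (SE, log2, adjusted p = 0.0172) for MT1E, 1.84 ± 0.55 (adjusted p = 0.0202) for MT1X and 2.57 ± 0.77 (adjusted p = 0.0201) for MT2A. MT1E reached 1 CPM in 0 of the 8 Hep3B libraries, so its value is no support for a difference between the lines. MT2A was below 1 CPM in the Hep3B parental and IR libraries and MT1X in the Hep3B-IR libraries. Their Hep3B changes are pressed toward 0 on this scale, so the size of their differences is uncertain. None of the 3 was called without Huh7-IR replicate 1 or Hep3B parental replicate 1. In both IR libraries of Huh7 MT2A was above both parental libraries, and in both IR libraries of Hep3B it was below them.

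For CR cells the difference for MT2A was -2.89 ± 0.77 (adjusted p = 0.0186), with 21.3 and 21.8 CPM in Huh7-CR and 28.4 and 20.5 CPM in Hep3B-CR cells. Over DMSO cells it was -1.36 (adjusted p = 0.222), and it was not called when any 1 of 5 libraries was left out, namely both of Huh7-CR, both of Hep3B parental cells and Hep3B-CR replicate 1. The levels in CR cells were thus close, and the parental levels, 27.5 and 4.38 CPM in Huh7 and 0.835 and 0.900 CPM in Hep3B, were not.

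Groups of 2 libraries were too small to be searched for outlying samples.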

How the results depend on the processing

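Totals are given for the 61 pairs of a member and a comparison that were called in any setting or changed by at least 0.58. Under the other settings 913 of their values kept direction and side of the threshold, 104 passed it newly, 61 lost it and 30 changed sign. The cause of the changes was not tested, except that the filter of 1 CPM in all libraries left only MTF1 and SLC30A1 to test. In Huh7-IR over parental cells the count of 3 calls became 0 with that filter, 5 at an unadjusted p, 0 with the 2 groups alone and 8 over DMSO cells, and 2 to 6 with a library left out. In Huh7-CR over parental cells the count of 1 became 0 with edgeR, DESeq2, quantile normalization, a pseudocount of 0.25, no filter, the strict filter, a GC adjustment or Huh7 alone, 2 at an unadjusted p and 6 over DMSO cells, and 0 to 3 with a library left out. In Hep3B-IR over parental cells the count of 0 became 1 with edgeR, a pseudocount of 0.25, Hep3B alone or the groups alone and 2 with DESeq2, all lower, and was 0 without each library. In Hep3B-CR over parental cells the count of 1 became 2 with edgeR, a pseudocount of 0.25, an unadjusted p or over DMSO cells, 3 with DESeq2, 4 with Hep3B or the groups alone and 0 with the strict filter, and was 1 without each library. In Huh7 DMSO over parental cells the count of 1 became 2 with edgeR, TMM, quantile normalization or a pseudocount of 0.25, 6 with DESeq2 or an unadjusted p, 4 with the GC adjustment, and 0 with the strict filter, Huh7 alone or the groups alone, and 0 to 5 with a library left out. Hep3B DMSO over parental cells stayed at 0 in every setting. The count of 0 in Huh7-IR over Huh7-CR became 1 with DESeq2 and 2 at an unadjusted p, and 0 to 3 with a library left out. The count of 2 in Hep3B-IR over Hep3B-CR became 6 with DESeq2, 1 with a pseudocount of 4, 0 with the strict filter and 4 with Hep3B alone, and 1 without each library. The 7 calls between the parental lines became 2 with the strict filter and 6 to 7 with a library left out. The IR interaction count of 3 became 1 with no filter, 0 with the strict filter or the groups alone and 6 over DMSO cells, and 0 to 5 with a library left out. The CR interaction count of 1, MT2A, became 2 with DESeq2 and 0 with the strict filter, and over DMSO cells it was 2 other members in the opposite direction, MT1E and SLC30A1, and 0 to 2 with a library left out: 2 without Huh7 parental replicate 1, 1 without its replicate 2 or Hep3B-CR replicate 2, and 0 without either Huh7-CR library, either Hep3B parental library or Hep3B-CR replicate 1. The non-overlapping members went from 2 to 1 in Huh7 and from 1 to 0 in Hep3B with TMM, quantile normalization or GC adjustment. With a library left out they were 2 to 8 and 1 to 2. The share of all genes is not given for these settings.

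The replicate numbers are not stated to pair the samples. Correlations of same-numbered deviations between groups of a line ran from -0.22, for Huh7 parental with DMSO cells, to 0.439, for Huh7-IR with Huh7-CR cells. Such a mixed range does not settle whether the numbers pair any of the samples. With a replicate block the counts were 5 in Huh7-IR, 1 in Hep3B-IR, 2 in Hep3B-CR, 4 in Huh7 DMSO and 1 in Huh7-IR over Huh7-CR. With the block and the GC adjustment they were 1 in Hep3B-IR, 5 in Huh7 DMSO, 1 in Huh7-IR over Huh7-CR and 2 in the CR interaction.

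Among the pairs covered by these totals, the log2 values that changed sign were the following. The range over left-out libraries is given where such a library changed the sign. In Huh7-CR over parental cells MT1F was -0.25 with edgeR, -0.23 with DESeq2, -0.030 with quantile normalization and -0.868 to 1.235 over left-out libraries. MT1G was -0.41, -0.40, -0.087 and -1.048 to 1.341 in the same order, -0.028 with a pseudocount of 4 and -0.058 without CR replicate 2. MT1X was 1.83 over DMSO cells and -0.66 to 0.37 over left-out libraries, and MT2A -0.34 to 2.07. In Huh7-IR over parental cells the range was -0.26 to 1.84 for MT1F and -0.27 to 1.20 for SLC30A1, and in Huh7 DMSO cells -1.53 to 0.047 for MT1M. In Huh7-IR over Huh7-CR it was -0.021 to 1.23 for MT1F and -1.19 to 0.29 for SLC30A1. In Hep3B-IR over Hep3B-CR, MT1F was 0.076 and MT1G 0.018 with the GC adjustment, with or without the block. In the IR interaction the range was -0.25 to 1.85 for MT1F and -0.30 to 1.17 for SLC30A1. In the CR interaction MT1E was -0.70 with edgeR and -0.68 with DESeq2, MT1X 0.61 and MT1M 0.078 over DMSO cells, and the ranges were -1.45 to 0.13 for MT1M and -0.14 to 0.49 for SLC30A1. Negative ends in Huh7-CR and Huh7-IR over parental cells came without Huh7 parental replicate 2, or for SLC30A1 without IR replicate 1. Quantile normalization moved the median of all genes in Huh7-IR over parental cells from 0.19 to 0 (log2). At this depth MT1H and most Hep3B values of the MT1 genes rest on few reads.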
